A study of Mus musculus with 24 samples.

Results

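The genes described here are 10 members of the endoplasmic reticulum unfolded protein response, taken as the rows of the deposited count table that carry the symbols Manf, Creld2, Hspa5, Sdf2l1, Xbp1, Hsp90b1, Pdia4, Dnajb9, Hyou1 and Herpud1. All 10 were present among the 25229 gene symbols of the table, and all 10 passed the filter on low counts that left 13571 genes for testing. The 24 libraries were made from poly-A RNA of the septum and left ventricle of C57BL/6 males. Each mouse had sham surgery or transverse aortic constriction (TAC), a narrowing of the aorta that puts a pressure load on the left ventricle. After a recovery of 1 week, exposure lasted 6 weeks, with 5 days in each and 6 hours per day, to HEPA-filtered air or to benzene at 50 ppm. This gives 4 groups of 6 libraries, called Sham/Air, Sham/Benzene, TAC/Air and TAC/Benzene. Since no label ties a library to its mouse, the p-values speak for the spread among these samples alone, which may be technical.

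Secreted and membrane proteins fold inside the endoplasmic reticulum (ER). When unfolded proteins build up there, the sensors IRE1, PERK and ATF6 act on the nucleus and on translation. IRE1 splices the Xbp1 mRNA, ATF6 is cut to release a transcription factor, and PERK slows protein synthesis. The genes that XBP1 and ATF6 switch on encode chaperones, folding enzymes and proteins that send misfolded chains to the proteasome. In the heart this response is known from studies of pressure overload, ischemia and secretory load, and MANF is a secreted protein that heart cells release under ER stress. The table gives counts per gene, so spliced and unspliced Xbp1 mRNA are not separated.

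Total counts ran from 4170660 to 14632231 per library. Sham/Air replicate 1 stood apart. It had the lowest total, and its median Spearman correlation with the other libraries over tested genes was 0.866, against 0.977 to 0.982 for the other 23. Its levels also followed GC content most strongly of the 24, with a rank correlation of -0.75 between a gene's GC content and its deviation in that library. In the other libraries that correlation lay between -0.53 and 0.59. Sham/Benzene replicate 4 was the highest library of its group in 6 of the 10 members, and it held the highest levels of the heat shock genes Hspa1a and Hspa1b in the study, at 184 and 219 CPM. These 2 are near-identical copies whose reads the counting may have split. Where leaving out either library changed the call of a member in 1 of the 5 planned comparisons, values with and without it are given. Cardiomyocyte markers, 10 genes such as myosins and troponins, summed to 61530 to 111200 CPM over the 24 libraries, with none at 0 in any group.

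The promoters are shown first because binding sites for the factors of this response are known in several of these genes. RefSeq promoters of the GRCm38.p6 build, each running from 250 bases before to 50 bases after a gene's start, were matched for 8 of the 10 members. Manf and Hyou1 had no entry. The sequences run 5′ to 3′ on the gene's strand, and capitals mark the paired motif letters of the ER stress response element (CCAAT, any 9 bases, then CCACG, or its reverse complement) and, in Herpud1, of the ER stress response element II (ATTGG, any 1 base, then CCACG).
Hspa5, chr2:34772005-34772063, plus strand: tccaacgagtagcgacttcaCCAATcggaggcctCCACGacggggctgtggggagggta
Creld2, chr15:88819500-88819558, plus strand: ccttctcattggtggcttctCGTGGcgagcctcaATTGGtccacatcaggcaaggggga
Hsp90b1, chr10:86705513-86705676, minus strand: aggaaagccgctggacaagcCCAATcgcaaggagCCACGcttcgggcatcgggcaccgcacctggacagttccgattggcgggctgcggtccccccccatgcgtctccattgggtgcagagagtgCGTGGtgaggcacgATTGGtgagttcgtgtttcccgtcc
Herpud1, chr8:94386357-94386407, plus strand: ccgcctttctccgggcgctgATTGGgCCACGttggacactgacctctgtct

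In Hspa5 the element lay at positions -65 to -47 from the start of the gene. In Creld2 it lay in the reverse direction at -126 to -108. Hsp90b1 held it at -212 to -194 and again, reversed, at -107 to -89, and the shorter element of Herpud1 lay at -52 to -42. Searched on both strands, the ER stress response element was in 3 of the 8 member promoters and in 0.119% of 32851 mouse promoters of the same length. The element II was in 1 of the 8 and in 0.0365% of all promoters. The core TGACGTGG, associated with XBP1 and ATF6, was in none of the 8 and in 0.676% of all. The half-site CCACG, which overlaps both longer elements, was in 7 of 8 and in 32.8% of all. These letters are a description of the sequence and show no binding.

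Levels per kilobase of transcript differed widely among the members. In TAC/Air, the BiP gene Hspa5 was at 152 CPM per kilobase, the GRP94 gene Hsp90b1 at 136 and Herpud1 at 91.5. CPM is the count relative to the TMM-scaled size of the library, and lengths are those of the longest GENCODE vM21 transcript. Below these came Xbp1 at 36.7, Dnajb9 at 27.4, Pdia4 at 16.6, Manf at 15.1, Creld2 at 11.4, Hyou1 at 8.95 and Sdf2l1 at 5.22 CPM per kilobase. The order of the leading pair depended on the group, with Hsp90b1 at 187 and Hspa5 at 184 in Sham/Air and Hspa5 ahead in the other 3 groups. In Sham/Air that order rests on 1 library, replicate 1, where Hsp90b1 was at 1450 CPM.

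**Figure D1:**
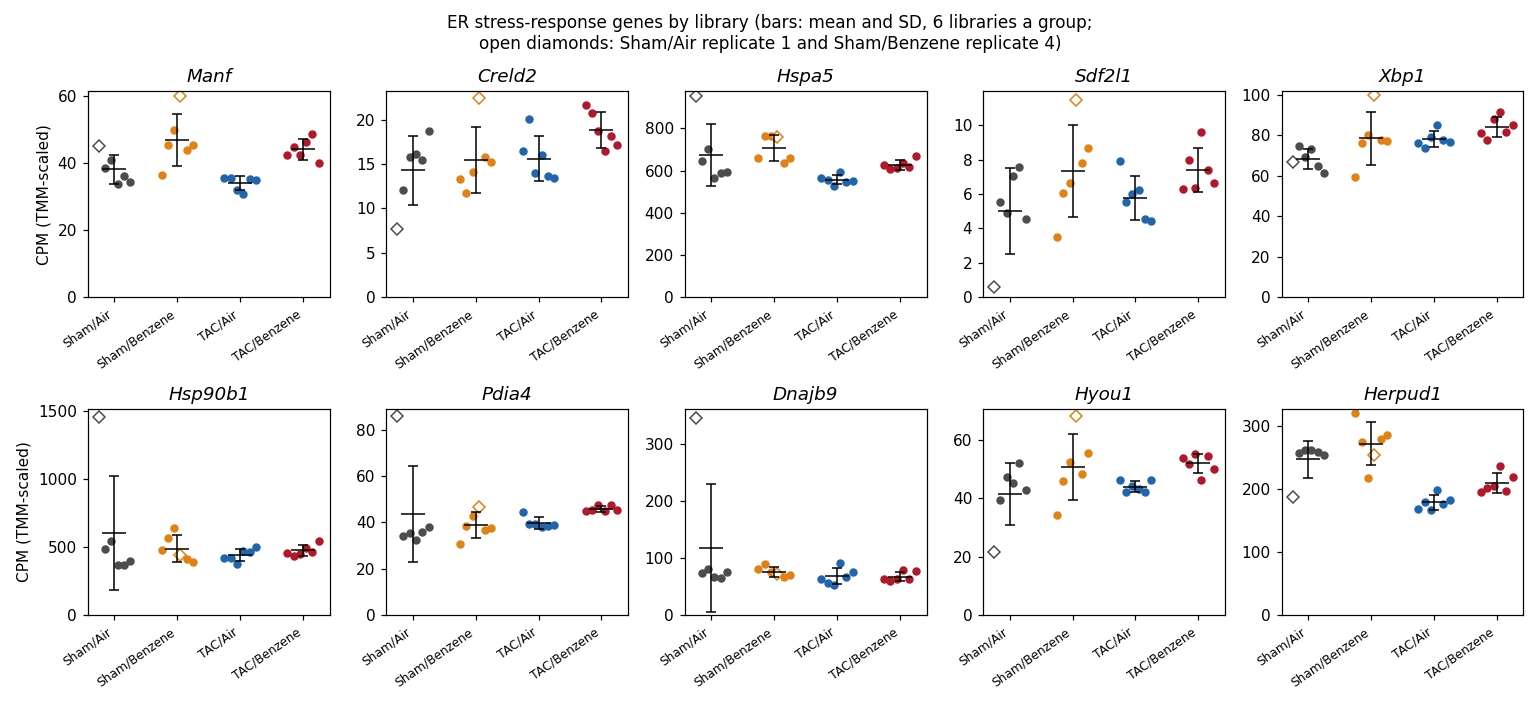
Each panel plots 1 gene, with TMM-scaled CPM on a linear axis from 0 and 1 point per library in the 4 groups; bars are the mean and SD of 6 libraries, and open diamonds mark Sham/Air replicate 1 and Sham/Benzene replicate 4. Herpud1 is low in both TAC groups, Manf is higher in TAC/Benzene than in TAC/Air, and the open diamond of Sham/Air lies far from its group in Hsp90b1, Pdia4 and Dnajb9.

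The first comparison asked what pressure overload did to these genes in filtered air. Herpud1, which encodes an ER membrane protein that helps degrade misfolded proteins, fell, and 9 of the 10 members did not pass the test. This count of 1 lower and 0 higher stands beside 7.35% of all tested genes called lower and 8.81% called higher (16.2% in all, adjusted p under 0.05 over all genes). The members' median log2 fold change was -0.14, against -0.01 over all genes, with 4 members above 0 and 6 below. Herpud1 ranged from 187 through a median of 258 to 263 CPM in Sham/Air, and from 167 through 178 to 198 CPM in TAC/Air. Of the Sham/Air libraries, replicate 1 alone, at 187 CPM, reached into the TAC/Air range, and the other 5 Sham/Air libraries lay between 254 and 263 CPM. The log2 fold change was -0.47 ± 0.09 (SE), with an adjusted p of 0.000713 in edgeR's quasi-likelihood test. Without that library it was -0.54 ± 0.07 (edgeR adjusted p = 3.33e-06), and the 2 groups did not overlap, as was so in the lower direction for 7.09% of tested genes.

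Herpud1 was the single member called by edgeR after TAC in benzene too. It ranged from 218 through a median of 277 to 320 CPM in Sham/Benzene and from 196 through 203 to 236 CPM in TAC/Benzene. TAC/Benzene replicate 4, at 236 CPM, and replicate 6, at 219 CPM, overlapped the lowest Sham/Benzene library, replicate 3. The fold change was -0.38 ± 0.09 on the log2 scale (edgeR adjusted p = 0.0046), beside 7.97% of genes called lower and 8.67% called higher (16.6% in all). The members' median was -0.02 and that of all genes 0. In a comparison added after seeing the data, TAC against sham averaged over both exposures, Herpud1 was at -0.42 ± 0.07 (edgeR adjusted p = 1.59e-05), where 13.3% of genes were called lower and 27.3% in all. The Herpud1 call held in all 35 alternative settings of each single comparison, with values from -0.60 to -0.45 in air and from -0.44 to -0.33 in benzene. Summed cardiomyocyte markers moved in the same direction, from a range of 87840 to 111200 CPM in Sham/Air to 61530 to 80320 CPM in TAC/Air, with 6 of 10 called lower, 0 higher and none at 0. Summed fibroblast markers went from 3519 to 4156 CPM up to 6197 to 6736 CPM, with 6 of 10 called higher. Lung epithelial markers summed to 6.82 to 10.5 CPM in Sham/Air and to at most 0.641 CPM in TAC/Air. In whole tissue, fewer cells of a type and less RNA per cell cannot be told apart, and the part of these markers' cells in the Herpud1 result was not tested.

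Among the chaperones, Hspa5 encodes BiP, the ER chaperone that also holds the sensors inactive. It ranged from 564 through a median of 618 to 955 CPM in Sham/Air and from 529 through 552 to 592 CPM in TAC/Air. The group ranges overlapped, and replicate 1 of Sham/Air set the upper end, with the next library at 700 CPM. The log2 fold change in air was -0.28 ± 0.10 without passing (edgeR adjusted p = 0.0599; DESeq2 called it at -0.29, adjusted p = 0.026), and without replicate 1 it was -0.15 ± 0.06 (edgeR adjusted p = 0.0915). In benzene the Hspa5 difference after TAC was -0.17 ± 0.10 (edgeR adjusted p = 0.29), from 707 ± 61.2 to 628 ± 23.4 CPM (SD, n = 6). Without Sham/Air replicate 1, which enters that comparison through the shared estimate of spread alone, it was -0.17 ± 0.06 and passed (edgeR adjusted p = 0.0345). Of 10 heat shock genes, 5 were called lower and 0 higher after TAC in benzene, beside 7.97% of all genes called lower. Medians of Hspb1, Hsp90aa1, Bag3 and Hspa8 were higher in TAC/Benzene, and those of the rest were lower. The 10 summed to 2985 to 4999 CPM in Sham/Benzene (median 3716) and 3681 to 4024 CPM in TAC/Benzene (median 3904). Sham/Benzene replicate 4 set the top of the sum and of Hspa1a, Hspa1b and Dnajb1 in its group. The part of these genes in the Hspa5 value was not tested. Averaged over exposure, Hspa5 was lower after TAC by edgeR, at -0.22 ± 0.07 (adjusted p = 0.0179). Without Sham/Air replicate 1 it was at -0.16 ± 0.04 (edgeR adjusted p = 0.00448). In edgeR with all libraries, Herpud1 and Hspa5 were the 2 members called in the averaged comparison, both lower.

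Hsp90b1 encodes GRP94, the ER member of the HSP90 family, and Dnajb9 encodes ERdj4, a J-domain partner of BiP. In Sham/Air, Hsp90b1 was at 1450 CPM in replicate 1 and between 364 and 541 CPM in the other 5 libraries, and in TAC/Air it was between 371 and 497 CPM. Dnajb9 was at 344 CPM in that replicate, between 64.3 and 79.6 CPM in the other 5, and between 52.6 and 90.7 CPM in TAC/Air. Both ranges without replicate 1 overlapped those of TAC/Air. The log2 fold change of TAC in air was -0.45 ± 0.24 for Hsp90b1 with all libraries (edgeR adjusted p = 0.222) and 0.02 ± 0.12 without replicate 1. For Dnajb9 it was -0.77 ± 0.30 (edgeR adjusted p = 0.0849) and -0.08 ± 0.11 without replicate 1. Neither passed in either fit, and the 95% interval for Dnajb9 with all libraries ran from -1.36 to -0.18.

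Sdf2l1, a partner of the BiP and J-protein cycle, was the least abundant member. It was at 0.568 CPM in Sham/Air replicate 1, which is 2 counts, and between 4.55 and 7.58 CPM in the other 5 Sham/Air libraries. TAC/Air libraries lay between 4.45 and 7.93 CPM, so the ranges overlapped. Hyou1 encodes a large HSP70-like chaperone that exchanges the nucleotide of BiP, and it was at 21.6 CPM in Sham/Air replicate 1, between 39.6 and 52.2 CPM in the other 5 and between 42.1 and 46.4 CPM in TAC/Air. Their log2 fold changes in air were 0.10 ± 0.27 and 0.07 ± 0.15, neither passing, and -0.06 and -0.05 without replicate 1.

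The folding enzymes and the remaining members did not pass after TAC in edgeR with all libraries. With limma-voom and sample quality weights on the same 24 libraries, Xbp1 passed in air (0.20, adjusted p = 0.046) and Pdia4 in benzene (0.27, adjusted p = 0.00182). That method called 14.2% of all genes higher in air (27.5% in all) and 17.2% higher in benzene (33% in all). Pdia4 encodes ERp72, a protein disulfide isomerase. Its 5 Sham/Air libraries other than replicate 1 lay between 32.4 and 38.0 CPM, replicate 1 was at 86.1 CPM, and TAC/Air lay between 37.9 and 44.7 CPM. The log2 fold change in air was -0.11 ± 0.17 with replicate 1 and 0.18 ± 0.08 without it (edgeR adjusted p = 0.119). In benzene Pdia4 was at 38.8 ± 5.52 CPM in Sham/Benzene and 45.9 ± 1.20 CPM in TAC/Benzene (SD, n = 6). That difference was 0.24 ± 0.17 (edgeR adjusted p = 0.395), and with the smaller spread of the fit without Sham/Air replicate 1 it was 0.24 ± 0.08 and passed as higher (edgeR adjusted p = 0.0184). Creld2, an ER protein with disulfide exchange activity, had log2 fold changes of 0.10 ± 0.16 in air and 0.28 ± 0.16 in benzene. Without both Sham/Air replicate 1 and Sham/Benzene replicate 4 the value in benzene was 0.42 ± 0.12 and passed (edgeR adjusted p = 0.00786).

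Xbp1, the transcription factor gene that IRE1 acts on, was between 61.3 and 74.6 CPM in Sham/Air, with a median of 68.3, and between 73.8 and 85.0 CPM in TAC/Air, with a median of 77.4. A single TAC/Air library, replicate 2 at 73.8 CPM, lay below the highest Sham/Air library. Its log2 fold change was 0.19 ± 0.09 without passing (edgeR adjusted p = 0.167), and 0.10 ± 0.09 in benzene. Manf, which encodes a secreted protein held in the ER by BiP, was at -0.16 ± 0.10 in air and -0.09 ± 0.10 in benzene, neither passing. In air 4 of the 10 members had an unadjusted p under 0.05 (28.1% of all genes did), and in benzene 1 of 10 (26.7% of all genes).

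**Figure D2:**
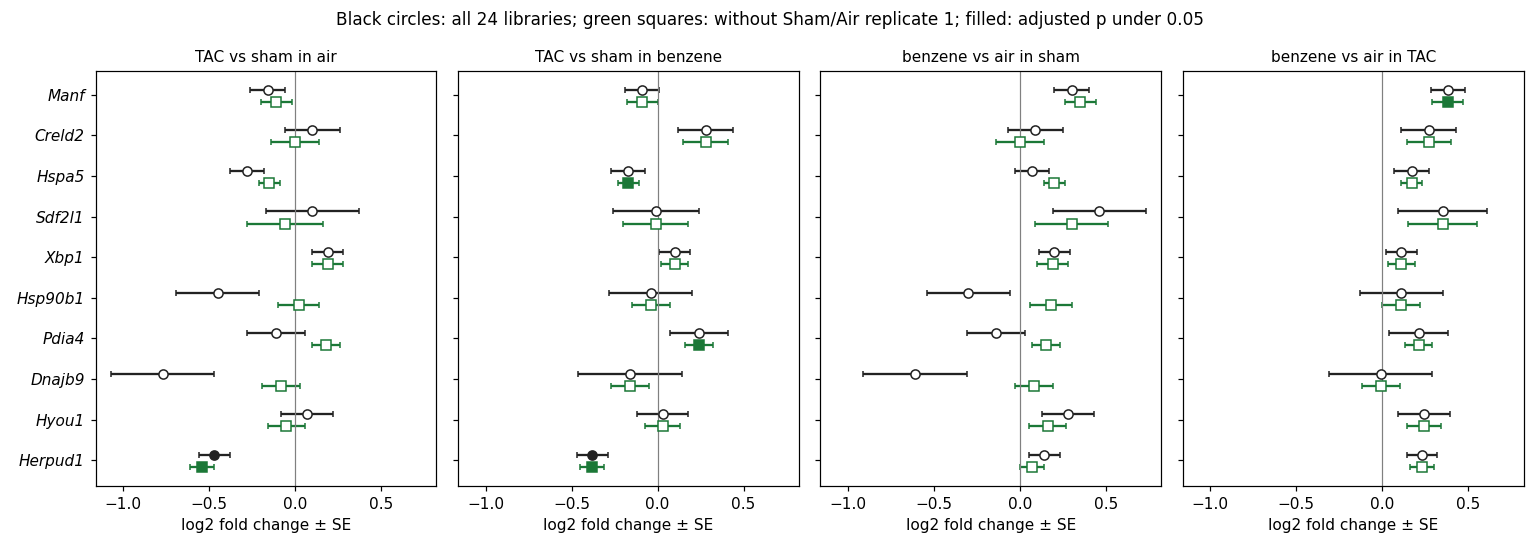
Log2 fold changes with SE from edgeR for the 10 members in 4 comparisons, with all 24 libraries (black circles) and without Sham/Air replicate 1 (green squares); filled symbols passed at adjusted p under 0.05. Herpud1 is filled in both TAC comparisons, while Hsp90b1, Pdia4 and Dnajb9 move to the right without that library in the 2 comparisons that use Sham/Air.

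The benzene comparisons asked what inhaled benzene did with and without pressure overload. After TAC, 9 of the 10 members had higher means in benzene than in air, by log2 fold changes of up to 0.38 and a median of 0.22 against 0 over all genes. None passed in edgeR with all 24 libraries, where 0.582% of genes were called, and 2 members had an unadjusted p under 0.05, as did 6.17% of genes. DESeq2 called 1, Manf, beside 1.26% of all genes. With limma-voom and sample quality weights Manf, Pdia4 and Herpud1 were called, beside 4.08% of all genes. Manf had the greatest fold change. It ranged from 30.6 through a median of 34.96 to 35.60 CPM in TAC/Air and from 40.1 through 43.6 to 48.6 CPM in TAC/Benzene, so that every TAC/Benzene library was above every TAC/Air library. The log2 fold change was 0.38 ± 0.10 (edgeR adjusted p = 0.0984, 1.3-fold). Manf passed in 8 of 35 alternative settings, among them DESeq2 (adjusted p = 0.0173), an edgeR fit of the 2 TAC groups alone (adjusted p = 0.00536) and the fit without Sham/Air replicate 1 (adjusted p = 0.0193), each at 0.38. The edgeR adjusted p was also under the threshold without Sham/Benzene replicate 1 (0.0476) and without Sham/Benzene replicate 4 (0.0386), which lie outside the 2 groups compared. Over all 35 settings the value ran from 0.35 to 0.41 and the adjusted p from 0.002 to 0.269.

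TAC/Air and TAC/Benzene did not overlap in 4 of the 10 members, all higher in benzene, which was so for 1.5% of all tested genes. Besides Manf these were Hspa5, Pdia4 and Hyou1. Hspa5 was at 529 to 592 CPM in TAC/Air, with a median of 552, and at 607 to 671 CPM in TAC/Benzene, with a median of 621. Hyou1 was at 42.1 to 46.4 CPM, with a median of 43.7, and at 46.5 to 55.3 CPM, with a median of 53.0. For Hyou1 the gap between the groups was narrow, with TAC/Benzene replicate 4 next to TAC/Air replicate 1. Pdia4 was at 37.9 to 44.7 CPM, with a median of 39.0, and at 44.8 to 47.5 CPM, with a median of 45.5. The gap was narrow here as well, since TAC/Air replicate 1 lay apart from its group at 44.7 CPM. The log2 fold changes were 0.17 ± 0.10 for Hspa5, 0.21 ± 0.17 for Pdia4 and 0.24 ± 0.15 for Hyou1. None of these 3 passed in edgeR with all libraries (adjusted p of 0.948 to 1), and the SE pooled the spread of all 4 groups, Sham/Air replicate 1 included.

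The other members overlapped between TAC/Air and TAC/Benzene. Herpud1 was at 178 ± 11.3 CPM in TAC/Air, against 209 ± 15.9 CPM in TAC/Benzene (SD, n = 6), a log2 fold change of 0.23 ± 0.09 (edgeR adjusted p = 0.59). Its 6 TAC/Benzene libraries stayed under the Sham/Benzene median. Creld2 was at 0.27 ± 0.16, Sdf2l1 at 0.35 ± 0.26, Xbp1 at 0.11 ± 0.09 and Hsp90b1 at 0.11 ± 0.24. Dnajb9 was the exception in sign, at -0.01 ± 0.30, with a 95% interval from -0.59 to 0.58. The mean of the 10 members' standardized log2 CPM was -0.68 to -0.20 in the TAC/Air libraries and 0.18 to 0.46 in the TAC/Benzene libraries, a description of the same values with no test.

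Other markers moved between TAC/Air and TAC/Benzene. The sum of 10 heat shock genes was 3249 to 3549 CPM in TAC/Air, against 3681 to 4024 CPM with benzene, without overlap, and 0 of the 10 passed. The sum of 8 neutrophil markers was 9.83 to 15.2 CPM in TAC/Air, against 43.9 to 53.5 CPM with benzene. Of the 8, 6 passed the filter on low counts, which a gene can pass through the single group where it is high. These 6 were called higher by edgeR, beside 0.295% of all genes. The defining marker Ly6g had a median of 0 in TAC/Air and of 0.0363 CPM in TAC/Benzene. The sum of 8 macrophage markers went the other way, from 627.2 to 684.8 CPM in TAC/Air to 543.8 to 580.3 CPM with benzene, without overlap. Lyz2 alone had medians of 377 and 332 CPM, beside summed medians of 648.5 and 556.4 CPM. The median of Cd163 went up, from 20.1 to 21.1 CPM, and those of the rest went down. Of the 8, 1 was called lower by edgeR, beside 0.287% of all genes. Without Sham/Air replicate 1, 4 were called lower, beside 0.827% of all genes. Cardiomyocyte markers were at 61530 to 80320 CPM and 64640 to 76860 CPM, with none of 10 called. The part of these in the benzene result was not tested.

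In sham mice, no member was called for benzene against air in edgeR with all libraries, where 0.0221% of genes were called. Manf and Xbp1 had an unadjusted p under 0.05, 2 of 10 members beside 5.73% of all genes. No member was called by DESeq2, which gave no adjusted p for Dnajb9, or in any other setting. Manf ranged from 33.7 through a median of 37.3 to 45.2 CPM in Sham/Air and from 36.3 through 45.4 to 60.0 CPM in Sham/Benzene. The top of the latter was replicate 4, and the groups overlapped. The log2 fold change was 0.30 ± 0.10 (edgeR adjusted p = 0.616), and 0.22 ± 0.09 without that library. Xbp1 was at 68.4 ± 5.05 CPM in Sham/Air, against 78.5 ± 12.9 CPM in Sham/Benzene (SD, n = 6), at 0.20 ± 0.09, and at 0.12 ± 0.08 without Sham/Benzene replicate 4. The values of Hsp90b1 (-0.30), Pdia4 (-0.14) and Dnajb9 (-0.61) in this comparison had the opposite sign without Sham/Air replicate 1, at 0.18, 0.15 and 0.08. Lung epithelial markers summed to 6.82 to 10.5 CPM in Sham/Air, against 0.277 to 2.15 CPM with benzene. Of these 6 genes, 2 passed the filter on low counts, which a gene can pass through the single group where it is high. Both were called lower in benzene with all libraries, beside 0.0147% of all genes. Without Sham/Air replicate 1, 1 of the 2 was called. The part of these markers in the members' values was not tested.

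Averaged over surgery, a comparison added after seeing the data, Manf was the single member called, higher in benzene at 0.34 ± 0.07 (edgeR adjusted p = 0.0298), where 0.125% of genes were called higher and 0.192% in all. The edgeR call ended without any 1 of 11 libraries, namely Sham/Air replicates 2, 4, 5 and 6, TAC/Air replicates 3 to 6 and TAC/Benzene replicates 2, 4 and 5, with adjusted p-values of up to 0.0758 and values from 0.30 to 0.37 over all libraries left out in turn. It also ended with offsets for GC content and length, at 0.31 ± 0.08 (edgeR adjusted p = 0.0547). Of the other members, Hyou1 (0.26 ± 0.10), Sdf2l1 (0.40 ± 0.19), Xbp1 (0.15 ± 0.06) and Herpud1 (0.18 ± 0.07) had an unadjusted p under 0.05, as 7.24% of genes did, and did not pass over all genes.

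The difference between the 2 responses was tested as the surgery by benzene interaction. No member was called in edgeR, beside 0.169% of all genes, and none had an unadjusted p under 0.05, as 4.69% of genes did. None was called by DESeq2, which gave no adjusted p for Dnajb9. The interaction of Herpud1 was 0.09 ± 0.13, with a 95% interval from -0.17 to 0.35. That of Manf was 0.08 ± 0.14, from -0.20 to 0.35. For Dnajb9 it was 0.61 ± 0.42, and without Sham/Air replicate 1 it was -0.08.

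Members differed in how they followed the GC trend of the libraries. The trend of a library is the rank correlation, over genes, of GC content with the gene's deviation from its mean over libraries. Across the 24 libraries with group means removed, Hsp90b1 (GC content 42.1%) correlated with that trend at -0.75, Dnajb9 (40.6%) at -0.67 and Hspa5 (45.6%) at -0.66. Creld2 (54.8%) was at 0.71, Sdf2l1 (56.7%) at 0.59 and Hyou1 (52.3%) at 0.57. Herpud1 (53%) at 0.09, Xbp1 (53%) at 0.03 and Manf (51%) at -0.04 were near 0, and Pdia4 (47.6%) was at -0.27. Herpud1 and Xbp1 thus lay near 0 at a GC content above that of Hyou1. Without Sham/Air replicate 1 and Sham/Benzene replicate 4, Hsp90b1 was at -0.84 and Creld2 at 0.62 over 22 libraries. The members did not rise and fall as one group across libraries. Within groups Hspa5 and Hsp90b1 correlated at 0.94, or 0.90 over the 22 libraries, and Hsp90b1 and Dnajb9 at 0.93, or 0.78. Sdf2l1 and Hyou1 correlated at 0.88, or 0.71, while Sdf2l1 and Hsp90b1 were at -0.85, or -0.58. These are descriptions over libraries that share depth and GC bias. With offsets for GC content and length, Herpud1 was at -0.60 after TAC in air, and Hspa5 at -0.24 (edgeR adjusted p = 0.00525) and Dnajb9 at -0.53 (edgeR adjusted p = 0.0474) passed as well. In that fit 15.9% of all genes were called lower and 27.7% in all. With the offsets but without Sham/Air replicate 1, Dnajb9 was at -0.16 and did not pass (edgeR adjusted p = 0.0632). Hspa5 then passed at -0.20 (edgeR adjusted p = 0.00161), where 18.1% of genes were called lower.

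**Figure D3:**
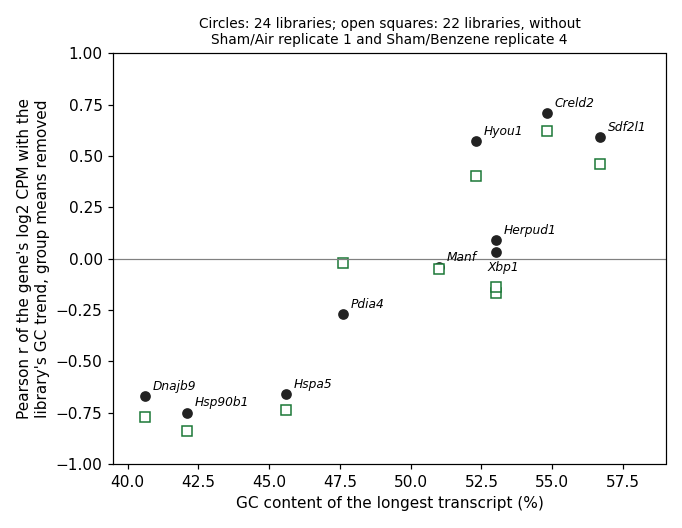
For each member, the GC content of its longest transcript in percent (horizontal) against the Pearson correlation of its log2 CPM with the library's GC trend, group means removed (vertical), over 24 libraries (circles) and over 22 libraries (open squares). Members of low GC content such as Hsp90b1 and Dnajb9 lie below 0 and members of high GC content such as Creld2 and Sdf2l1 above 0, with Herpud1, Xbp1 and Manf near 0.

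Further genes of the pathway were counted from lists of sensors, folding factors and stress branches. The counts of each list stand beside 8.81% of all tested genes called higher and 7.35% lower in air, and 8.67% higher and 7.97% lower in benzene. Without Sham/Air replicate 1 more genes passed. Of all genes, 12.1% were then higher and 11.1% lower in air, and 13.6% higher and 13.2% lower in benzene. Among the sensors and membrane-bound transcription factors, after TAC 2 of 10 tested were higher and 0 lower in air, and 3 higher and 0 lower in benzene. Creb3l2, a factor cut from the ER and Golgi membrane as ATF6 is, was at 0.86 ± 0.11 in air and 0.77 ± 0.11 in benzene. Creb3 was at 0.32 ± 0.09 and 0.40 ± 0.09. The PERK gene Eif2ak3 was at 0.27 ± 0.10 without passing in air and at 0.28 ± 0.10, passing, in benzene. The IRE1 gene Ern1 was at -0.25 ± 0.12 in air without passing.

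Of 16 other ER chaperones, 1 was higher and 0 lower in air and none passed in benzene, where 3 of them (Canx, Cdnf and Dnajb11) had an unadjusted edgeR p under 0.05. The called gene was Cnpy4, at 0.42 ± 0.13. This list had 2 higher and 0 lower in air, and 1 higher and 2 lower in benzene, without Sham/Air replicate 1. The calnexin gene Canx was at -0.29 ± 0.12 in air and -0.27 ± 0.12 in benzene, and Cdnf, a relative of Manf, at -0.40 ± 0.15 and -0.32 ± 0.14, none passing. Averaged over exposure, 3 of the 16 were called higher and 2 lower by edgeR, beside 14% of all genes higher and 13.3% lower. Those lower were Canx (-0.28, adjusted p = 0.0136) and Cdnf (-0.36, adjusted p = 0.00922), and those higher included Dnajc10 (0.22, adjusted p = 0.0299) and Cnpy4 (0.26, adjusted p = 0.0303). Among 20 disulfide isomerases and oxidases, 3 were higher and 0 lower in air and 3 higher and 1 lower in benzene. Txndc5, a disulfide isomerase gene, was at 0.61 ± 0.12 and 0.57 ± 0.12, and the secreted sulfhydryl oxidase gene Qsox1 at 0.78 ± 0.22 and 0.80 ± 0.21. Pdia5 was at 0.56 ± 0.12 in air, and in benzene the protein disulfide isomerase gene P4hb was at 0.35 ± 0.11 and Tmx1 fell by 0.34 on the log2 scale.

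ER-associated degradation, the route that Herpud1 serves, had 2 of 20 tested genes higher and 0 lower in each TAC comparison, a share near that of all genes. It had 2 higher in air and 4 in benzene without Sham/Air replicate 1. Among the genes called with all libraries was Edem1, which recognises trimmed glycans on misfolded proteins, at 0.32 ± 0.09 in air and 0.29 ± 0.09 in benzene. Herpud2, the relative of Herpud1, was at 0.22 ± 0.11 in benzene without passing. Of 28 translocon, signal peptidase and ER to Golgi genes, 5 were higher in air and 3 in benzene, with 0 lower, and without Sham/Air replicate 1 there were 6 and 5. The share in benzene was near that of all genes. The KDEL receptor gene Kdelr3, which returns escaped ER chaperones from the Golgi, was at 1.07 ± 0.16 and 0.69 ± 0.15, and the signal peptidase gene Spcs3 at 0.62 ± 0.12 and 0.73 ± 0.12. The translocon channel gene Sec61a1 was at 0.45 ± 0.13 in air.

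The PERK and ATF4 branch had 3 of 16 tested genes higher and 0 lower in both TAC comparisons. Nupr1, a stress-induced nuclear protein gene, went from a mean of 5.61 CPM in Sham/Air to 19.5 CPM in TAC/Air, at 1.73 ± 0.24, and was at 1.60 ± 0.23 in benzene. Atf3 was at 1.22 ± 0.19 and 0.93 ± 0.17. Ppp1r15a, whose product reverses the PERK block of translation, was at 0.59 ± 0.19 and 0.55 ± 0.19. Medians of these 6 lists lay between 0.05 and 0.22 in air and between 0.06 and 0.30 in benzene, beside -0.01 and 0 over all genes. With all libraries, none of the 6 lists' 110 tested genes passed in edgeR for benzene in sham, benzene in TAC or the interaction. Of the 110, 7, 2 and 2 had an unadjusted p under 0.05, beside 5.73%, 6.17% and 4.69% of all genes. With GC and length offsets and no Sham/Air replicate 1, benzene in TAC had 1 higher each in the sensor, degradation, translocon and PERK lists. The disulfide list then had 1 lower, beside 2.33% of all genes higher and 2.06% lower. For the interaction the degradation list had 1 higher in that fit, beside 0.805% of all genes. Averaged over surgery, none of the 110 passed with all libraries, and Atf3 was at 0.55 ± 0.13 (edgeR adjusted p = 0.086). The PERK and ATF4 list had 1 higher there without Sham/Air replicate 1, beside 0.395% of all genes. With offsets as well it had 2 higher, beside 1.23% of all genes. For TAC in air without Sham/Air replicate 1, the disulfide list had 7 higher and 0 lower.

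**Figure D4:**
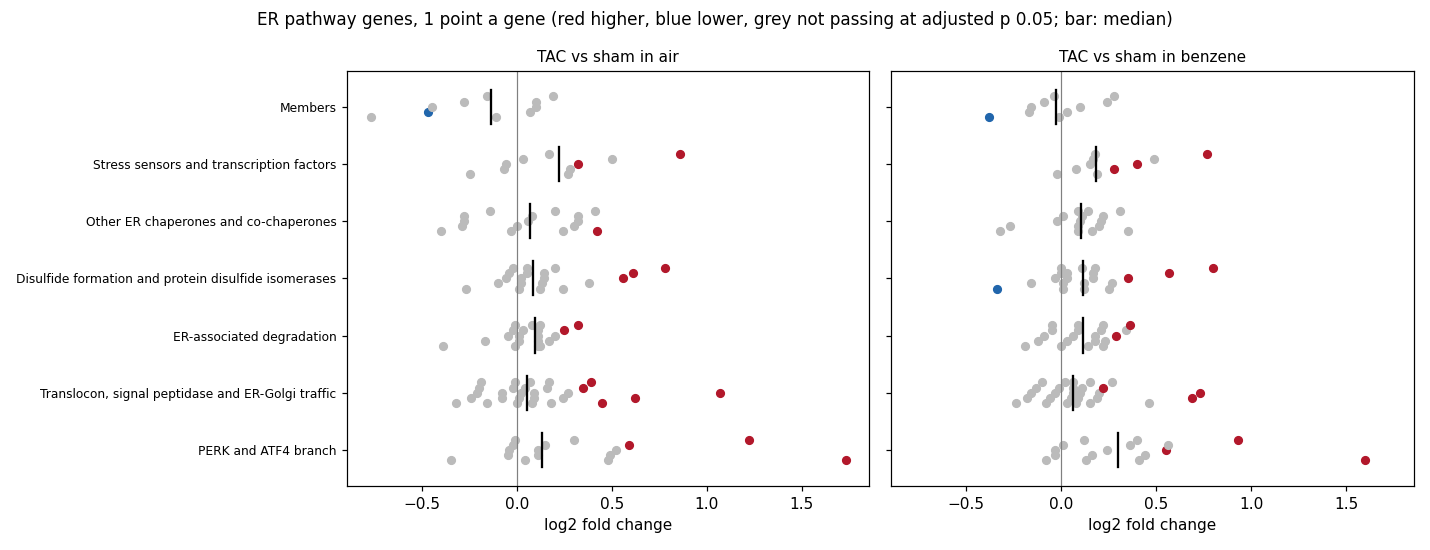
Log2 fold change of TAC against sham in air (left) and in benzene (right), 1 point per tested gene, for the 10 members and 6 other lists of the pathway; red points were called higher, blue lower and grey not called by edgeR at adjusted p under 0.05, and bars are list medians. Herpud1 is the blue point of the members in both panels, and the red points at the far right of the PERK and ATF4 list are Atf3 and Nupr1.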

How the data were processed

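The deposited data are raw read counts, whole numbers in a gene by library table, per the file headers. FastQC 0.11.9, STAR, DESeq2 and mm9 appear in the submitters' processing notes. How the authors counted, and with which annotation and strand, is not given in the sources used here. Genes were kept by edgeR 4.0.16 (R 4.3.3; minimum count 10, minimum total 15), which left out 0.0747% of counts. Counts were scaled by TMM, and all 24 libraries entered the robust quasi-likelihood test with 1 coefficient per group, checked on simulated data. Calls used Benjamini-Hochberg adjustment over all tested genes, at 0.05. SE was the fold change divided by the square root of its F statistic, and log2 CPM used a prior count of 2. GC content and length, for 98% of symbols, came from GENCODE vM21. The alternatives, with DESeq2 1.42.0 and limma 3.58.1 among them, stand in the closing section.

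The text names all members and, per pathway list, up to 4 genes of smallest p; some genes that these rules name are not reported here. Members and lists were chosen with earlier results of these data known. The comparisons averaged over exposure and over surgery, and the settings without both Sham/Air replicate 1 and Sham/Benzene replicate 4 or with offsets without the former, were added after seeing the data. No coordinates are given for counted genes, since the counts' build differs from that of the promoters.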

Additional observations from a re-analysis of the deposited data

Results flagged for a closer look

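In 6 of 40 combinations of member and group, 1 library lay apart from the other 5 by a share of the group's range above the 95% limit of Dixon's test for 6 values. Chance gives about 1 such combination in 20. Sham/Air replicate 1 was the library in 5 of them. It had 955 CPM of Hspa5 (next 700), 1450 CPM of Hsp90b1 (next 541), 86.1 CPM of Pdia4 (next 38.0) and 344 CPM of Dnajb9 (next 79.6), all high, and 187 CPM of Herpud1 (next 254), which was low. The other was TAC/Air replicate 1, with 44.7 CPM of Pdia4 (next 39.4).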

How the results depend on the processing

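For each comparison 34 or 35 alternative settings were run. In sham mice benzene called 0 members in all of them, as did the interaction. The Herpud1 calls after TAC held in all. For TAC in air the count of 1 member became 2 with DESeq2 (Herpud1 and Hspa5), 2 with limma-voom and sample quality weights, 3 with GC and length offsets, 2 with those offsets and the replicate block, and 2 with the offsets and no Sham/Air replicate 1. It was 1 to 3 with each library left out in turn, with 3 without Sham/Air replicate 4 or 5 (Hspa5 and Dnajb9 added) and 2 without replicate 6. Of all genes, 19.9% were called with DESeq2, 27.5% with limma-voom, 27.7% with offsets and 32.1% with offsets and no Sham/Air replicate 1. For TAC in benzene the count of 1 became 2 with limma-voom (Pdia4 added, higher). It was 3 without Sham/Air replicate 1 and Sham/Benzene replicate 4 (Creld2 and Pdia4 added, both higher). With offsets and no Sham/Air replicate 1 it was 4, and with each left out it was 1 to 3, 3 without Sham/Air replicate 1. The share of all genes called was 33% with limma-voom, 27.2% without both libraries and 35.7% with offsets and no Sham/Air replicate 1. Without Sham/Air replicate 1 alone that share was 26.8%. For benzene in TAC the count of 0 became 1 with DESeq2, 3 with limma-voom (Manf, Pdia4, Herpud1), 1 with the 2 groups alone, 1 without both libraries, 2 with offsets and no Sham/Air replicate 1 (Manf, Hspa5), and 0 to 1 with each left out. The share of all genes was 1.26% with DESeq2, 4.08% with limma-voom, 2.08% with the 2 groups alone and 1.95% without both libraries. With offsets and no Sham/Air replicate 1 that share was 4.38%. Averaged over exposure, the 2 members called became 4 with limma-voom, 5 without both libraries and 4 with offsets and no Sham/Air replicate 1, and 2 to 3 with each left out (3 without Sham/Air replicate 1 or Sham/Benzene replicate 4). Here 42.4% of all genes were called with limma-voom, 36.8% without both libraries and 46.1% with offsets and no Sham/Air replicate 1. Without Sham/Air replicate 1 alone it was 36.5%. Herpud1 and Hspa5 passed as lower in all 34 settings, and these counts do not give the direction of the members added. Averaged over surgery, the 1 called became 3 with limma-voom, 0 with the replicate block, 0 with offsets, 0 with block and offsets and 2 with offsets and no Sham/Air replicate 1, and 0 to 2 with each left out. There 1.35% of all genes were called with limma-voom and 2.39% with offsets and no Sham/Air replicate 1. The causes were not tested. DESeq2 gave no adjusted p for Dnajb9 in any of the 5 planned comparisons.

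Some log2 fold changes that edgeR did not call with all libraries changed sign. Most were within 0.14 of 0, but Dnajb9 for benzene in sham (-0.61) and in the interaction (0.61), and Hsp90b1 for TAC in air (-0.45), for benzene in sham (-0.30) and in the interaction (0.41) were not. With GC and length offsets the changes were Hyou1 in TAC against sham (-0.02 in air, -0.02 in benzene) and in the interaction (0), Hsp90b1 in TAC against sham in benzene (0), Xbp1 in the interaction (0.02) and Dnajb9 in benzene against air in TAC (0.06). With the replicate block as well they were 0, 0, 0, 0.01, 0.03 and 0.07, and Sdf2l1 in TAC against sham in benzene was 0.02, or 0.03 with the replicate block alone. With offsets and no Sham/Air replicate 1, TAC against sham in air gave -0.01 for Sdf2l1, -0.08 for Hyou1 and 0.15 for Pdia4, with Hyou1 at -0.03 in benzene and 0.05 in the interaction. Benzene then gave 0.02 for Dnajb9, 0.12 for Hsp90b1 and 0.14 for Pdia4 in sham, and 0.05 for Dnajb9 in TAC. With limma-voom, TAC in air gave -0.05 for Hyou1, -0.08 for Creld2, -0.12 for Sdf2l1, 0.07 for Hsp90b1 and 0.16 for Pdia4, with Hsp90b1 at 0.08 in benzene. Benzene in sham gave -0.01 for Creld2, 0.02 for Dnajb9, 0.09 for Hsp90b1 and 0.11 for Pdia4, Dnajb9 was 0 in TAC, and the interaction was -0.02 for Dnajb9, 0.01 for Sdf2l1 and 0.09 for Hyou1. Without Sham/Air replicate 1 and Sham/Benzene replicate 4, TAC in air gave -0.06 for Sdf2l1, 0.02 for Hsp90b1, 0.18 for Pdia4 and -0.05 for Hyou1, and TAC in benzene 0.17 for Sdf2l1. Benzene in sham then gave -0.15 for Creld2, 0.20 for Hsp90b1, 0.08 for Pdia4 and 0.09 for Dnajb9. The interaction was 0 for Hspa5, 0.23 for Sdf2l1, -0.09 for Hsp90b1, -0.10 for Dnajb9 and 0.18 for Hyou1.

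With each library left out in turn, the values that changed sign had these ranges. For TAC in air they were -0.06 to 0.24 for Sdf2l1, -0.56 to 0.02 for Hsp90b1, -0.18 to 0.18 for Pdia4 and -0.05 to 0.14 for Hyou1, and in benzene -0.15 to 0.16 for Sdf2l1, -0.10 to 0.05 for Hsp90b1 and -0.06 to 0.13 for Hyou1. For benzene in sham they were -0.05 to 0.18 for Creld2, -0.41 to 0.18 for Hsp90b1, -0.21 to 0.15 for Pdia4 and -0.73 to 0.08 for Dnajb9, and in TAC -0.07 to 0.09 for Dnajb9. For the interaction they were -0.02 to 0.15 for Hspa5, -0.25 to 0.07 for Sdf2l1, -0.06 to 0.52 for Hsp90b1, -0.08 to 0.73 for Dnajb9 and -0.13 to 0.08 for Hyou1. Sham/Air replicate 1 gave the end of opposite sign for Sdf2l1, Hsp90b1, Pdia4 and Hyou1 for TAC in air, for Hsp90b1, Pdia4 and Dnajb9 for benzene in sham, and for Hspa5, Hsp90b1, Dnajb9 and Hyou1 in the interaction.

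Same-numbered libraries had r over 0.1 in 9 of 24 pairs, all 9 in the benzene against air comparisons (9 of 12 there, and 0 of 12 in the TAC comparisons), and 5 libraries, also there, matched their own number best. Since r was not over 0.1 in every pair of any comparison, the numbers were not treated as pairs. The GC trend of the libraries nevertheless differed by number. In sham libraries it was -0.75 to -0.22 in replicates 1 to 3 and 0.34 to 0.59 in replicates 4 to 6. In TAC libraries it was 0.43 to 0.56 in replicates 1 to 3 and -0.53 to 0.43 in replicates 4 to 6. The origin of this split was not tested. With the replicate block, 1 member was called for TAC in air, 1 for TAC in benzene, 2 for TAC averaged over exposure and 0 in the other comparisons. Manf averaged over surgery was then at 0.34 (edgeR adjusted p = 0.139), or 0.31 with offsets as well (0.136). Depth limits Sdf2l1 most, at 2 counts in Sham/Air replicate 1.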

Other observations

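Over all 24 libraries, the genes whose log2 CPM followed the mean standardized level of the 10 members most closely were mostly cytosolic chaperones and their partners. Among the 9007 genes averaging 10 CPM or more, the highest Pearson correlations were 0.87 for Hsph1, 0.78 for Ahsa2 and Hspa1a, 0.77 for Dnaja1, 0.75 for Hspa1b and 0.74 for Siah2, followed by St13, Stip1 and Hsp90aa1. With group means removed they were 0.87 for P4ha1, 0.85 for Hsph1, 0.81 for Hspa1b and 0.80 for Thbs1. Over the 22 libraries without Sham/Air replicate 1 and Sham/Benzene replicate 4 they were 0.85 for Hsph1, 0.82 for Asb11 and 0.77 for Hspa8, and most of the 10 highest there, such as Atp1b1 and Gpam, were not chaperones. These are descriptions over libraries that share depth, GC bias and group, and Hsph1 itself was highest in Sham/Benzene replicate 4 at 245 CPM and next in Sham/Air replicate 1 at 183 CPM.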
